A study of Mus musculus with 9 samples.

Results

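Cathepsins are the main proteases of the lysosome, and cystatin C is a secreted inhibitor of those that use a cysteine in the active site. The 10 genes described here are Ctsa, Ctsb, Ctsc, Ctsd, Ctsh, Ctsk, Ctsl, Ctss, Ctsz and Cst3. They were picked by gene symbol, with earlier results of these data known. Each had 1 row among the 16492 gene rows of the array table, so all 10 were measured in every clone. RNA came from stable clones of RAW-264.7, a mouse cell line of the monocyte/macrophage type. The 5 RAW-FoxQ1 clones, numbered 7.1 to 7.5, carried mouse FoxQ1, a forkhead transcription factor, in the vector pEF6/V5-His TOPO, and the 4 RAW-vector clones, numbered 4 to 7, carried the empty vector. All 9 were derived from single cells, grown in 6 µg/ml blasticidin S and given no further treatment, and each was measured on 1 array. A group is therefore a set of clones of 1 cell line, and every p-value below measures the spread between clones. Neither the labels nor the methods say whether clones of a group descend from 1 transfection.

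Cathepsins are made as inactive precursors, tagged with mannose 6-phosphate, carried to the lysosome by sorting receptors and activated there in acid. In macrophages they break down engulfed proteins, trim the invariant chain of MHC class II and activate other proteases and nucleic acid receptors. Outside the cell some of them degrade matrix, where cystatin C restrains the cysteine cathepsins.

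Quantile normalization gives every array the same median log2 value, 7.49 here. Arrays of a group correlated at 0.988 to 0.998 (RAW-vector) and 0.981 to 0.997 (RAW-FoxQ1) over the gene rows, and arrays of different groups at 0.934 to 0.968. The Foxq1 row read 6.94 to 7.01 in RAW-vector and 7.27 to 7.44 in RAW-FoxQ1 clones. The position of its probes relative to the transfected coding fragment was not examined. Of the macrophage markers, 8 of 9 had a row. Their mean log2 level was 11.4 to 11.8 in RAW-vector and 11.2 to 11.4 in RAW-FoxQ1 clones, with Adgre1 (-2.38) and Itgam (-0.65) lower, Fcgr1 (0.54) higher and Lyz2, Csf1r, Ptprc, Spi1 and Cd14 not called. No fibroblast or epithelial marker was called, with list means of 6.57 to 6.64 and 6.40 to 6.52 over the 9 clones. Of 3 T cell markers Cd3e was lower (-0.20), with list means of 6.95 to 6.99 in RAW-vector and 6.83 to 6.96 in RAW-FoxQ1 clones. Of 3 neutrophil precursor markers Elane and Prtn3 were lower, with list means of 7.47 to 7.71 and 7.29 to 7.35, and the 1 B cell marker measured, Ms4a1, was not called. Among all gene rows 21.4% were called lower and 19.6% higher, and of the 8 macrophage markers 25% and 12.5%. The poly-A spike-in controls, foreign transcripts added to the RNA before labelling, read 8.41 to 8.70 in RAW-vector and 7.92 to 8.38 in RAW-FoxQ1 clones (difference -0.50, two-sided exact permutation p = 0.0159).

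The deposited values of 6 of the 9 cathepsins, and of cystatin C with them, were lower in RAW-FoxQ1 than in RAW-vector clones, with 5 of these 7 differences turning above 0 under 1 of the scalings tried. In limma at an adjusted p under 0.05, 7 of the 10 genes (70%) fell, namely Ctsa, Ctsb, Ctsd, Ctsl, Ctss, Ctsz and Cst3, although with the arrays centred on ribosomal protein genes, which adds 0.62 to every difference, only Ctsa and Ctsl stayed called lower and the other 5 had differences above 0. Relative to that common shift the differences were the same. The ribosomal protein genes themselves had a median difference of -0.25, smaller in size than the 0.62 added. Any difference below 0 by less than 0.62 turns positive under this centring, whatever the gene, and 14970 gene rows were called. A second ribosomal centring, chosen after seeing the data, added 0.24. It left all 7 differences below 0 and 5 of them called lower, with Ctsh and Ctsk called higher. In limma without centring none of the 10 rose, and Ctsc, Ctsh and Ctsk did not pass the test. Among all 16492 gene rows 40.9% passed the test, 21.4% as lower and 19.6% as higher in RAW-FoxQ1. For the same 7 genes every RAW-FoxQ1 clone lay below every RAW-vector clone, which held for 18.8% of all gene rows. The median difference of the 10 genes was -0.49 on the log2 scale, against -0.014 over all genes. The mean level of the 10 genes was 11.2 to 11.3 in the RAW-vector clones and 10.3 to 10.8 in the RAW-FoxQ1 clones. In a bulk array of a clone, fewer cells that express a gene and less RNA per cell cannot be told apart. With the poly-A level of each array as a covariate, 3 of the 7 stayed called (Ctsa, Ctsb and Ctss). That level did not overlap between the groups (8.41 to 8.70 in RAW-vector and 7.92 to 8.38 in RAW-FoxQ1 clones). It therefore cannot be well separated from the group, and the standard errors of all 7 grew. For Ctsl the difference went from -2.55 (SE 0.787) to -2.70 (SE 1.64).

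**Figure D1:**
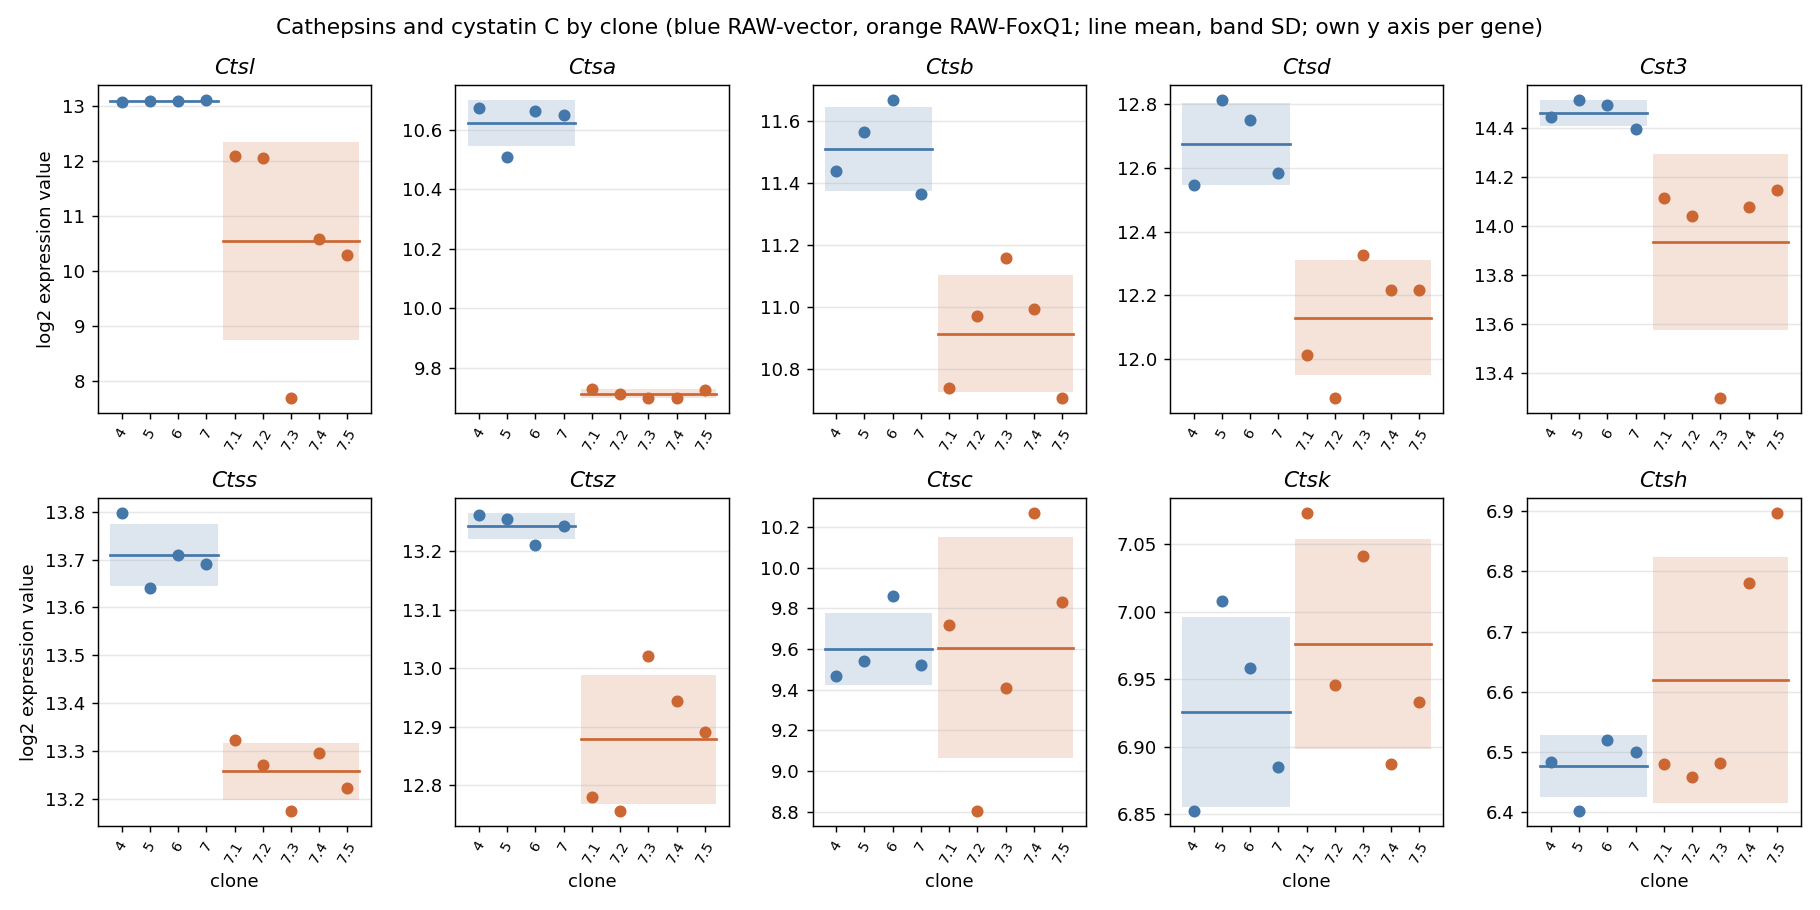
Log2 expression values (y axis, own range per gene) of the 10 genes in each clone (x axis), RAW-vector in blue and RAW-FoxQ1 in orange, with the group mean as a line and 1 SD as a band. For 7 genes every RAW-FoxQ1 point lies below every RAW-vector point on the deposited scale (with the arrays centred on ribosomal protein genes, 5 of these have group differences above 0), and clone 7.3 stands far below the others for Ctsl and Cst3.

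**Figure D2:**
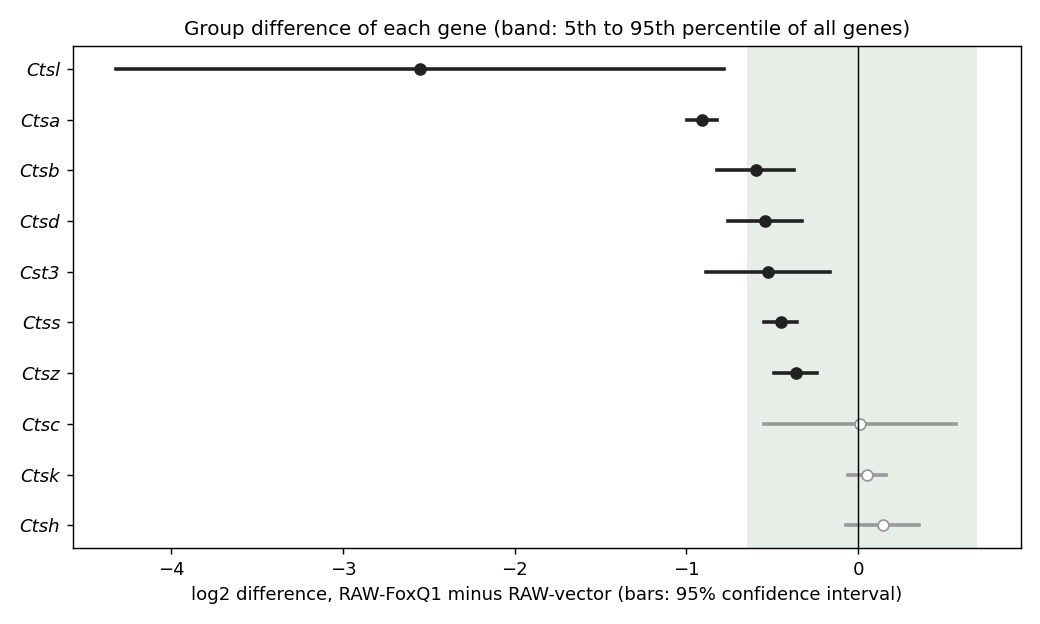
Log2 difference of RAW-FoxQ1 minus RAW-vector (x axis) for each gene (y axis) with its 95% confidence interval from limma, filled where the adjusted p is under 0.05, over a band of the 5th to 95th percentile of all gene rows (-0.65 to 0.69). Ctsl (-2.55) and Ctsa (-0.91) lie outside the band, and the other called genes lie within it (5 of the 7 turn positive when the arrays are centred on ribosomal protein genes).

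Lysosomal genes are known to share a short promoter element, the CLEAR motif, which is bound by TFEB and its relatives, and forkhead proteins bind AT-rich elements. Promoter windows from 250 bases before to 50 after an annotated start (RefSeq, GRCm38.p6) were given for 8 of the 10 genes, all but Ctsb and Ctsh, with a pair of windows for Ctsa. They were searched on both strands for the E-box CACGTG, for the CLEAR core TCACGTGA, which contains it, and for the forkhead core TGTTTA, whose reverse complement is what the capitals of the Ctsl and Ctsk sites show. The sites found are shown because they lie in 3 of the genes that fell and in 1 that was not called. Capitals mark the motif, and the number after each gene is the position of its first base relative to the start.
Ctsa (-13): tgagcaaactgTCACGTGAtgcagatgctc
Ctsa (5): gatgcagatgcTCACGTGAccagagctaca
Ctsl (-236): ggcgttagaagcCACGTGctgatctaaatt
Ctsl (-131): attgttgtgggtTAAACAgaaaccacgggt
Ctsk (-125): gtcagatgaaacTAAACActtagcagctat
For Ctsd the whole stretch of 250 bases before the start is shown, since it holds an E-box near its far end and a CLEAR core.
Ctsd (chr7:142387828-142388077, minus strand): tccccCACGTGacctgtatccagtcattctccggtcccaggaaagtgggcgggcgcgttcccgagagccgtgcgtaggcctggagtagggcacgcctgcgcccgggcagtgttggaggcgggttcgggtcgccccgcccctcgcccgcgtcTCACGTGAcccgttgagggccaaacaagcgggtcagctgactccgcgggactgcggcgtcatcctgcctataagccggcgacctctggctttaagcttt
The sites of Ctsa lie at chr2:164833749-164833778 and chr2:164833766-164833795 (plus strand), those of Ctsl at chr13:64370739-64370768 and chr13:64370634-64370663 (minus strand) and that of Ctsk at chr3:95499073-95499102 (plus strand). The Ctsl window and the second Ctsa window lie inside the annotated span of the gene, at a start that is not its outermost one.

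The E-box occurred in 7.15% of all 32851 windows, the CLEAR core in 0.974% and the forkhead core in 13.4%. Counted by gene, among the 12276 measured genes with a window, the shares were 10.6%, 1.73% and 11.5%. Of the 8 genes with a window, 3 held an E-box (Ctsa, Ctsd and Ctsl), 2 of them as a CLEAR core (Ctsa and Ctsd), and 2 held a forkhead core (Ctsl, which fell, and Ctsk, which was not called). Across the array, of the 212 measured genes with a CLEAR core 26.4% were called lower and 29.7% higher, and of the 1306 with an E-box 22.8% and 26.2%, against 21.9% and 20.6% of the 12276 measured genes with a window. For the 1415 genes with a forkhead core the shares were 21.8% and 16.4%. A match is a run of letters and not a measured binding site.

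Cathepsin D, the aspartic protease of the lysosome, whose promoter window with a CLEAR core and a further E-box is printed above, fell. Its log2 values were 12.55, 12.81, 12.75 and 12.58 in RAW-vector clones 4, 5, 6 and 7, and 12.01, 11.88, 12.33, 12.22 and 12.22 in RAW-FoxQ1 clones 7.1 to 7.5. The groups did not overlap, clone 7.2 being the lowest and clone 7.3 the highest of the RAW-FoxQ1 clones. The difference was -0.54 (SE 0.0960, 95% interval -0.76 to -0.33), a 1.46-fold lower level (limma adjusted p = 0.00138, exact permutation p = 0.00794). The latter value is the smallest that the 126 splits of 9 clones into 4 and 5 can give, and all exact permutation tests here are two-sided.

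Cathepsin A is a serine carboxypeptidase that also protects beta-galactosidase and neuraminidase in a shared complex. It read 10.67, 10.51, 10.66 and 10.65 in the RAW-vector clones and 9.73, 9.71, 9.70, 9.70 and 9.73 in the RAW-FoxQ1 clones. The RAW-FoxQ1 clones were nearly level, with an SD of 0.0148 against 0.0777 among RAW-vector clones, and the nearest clones of the groups were 0.779 apart. The difference was -0.91 (SE 0.0391, 95% interval -1.0 to -0.82), or 1.88-fold, with a limma adjusted p of 2.98e-07 (exact permutation p = 0.00794). Cathepsin A kept its call under every alternative fit except the one that asked for a difference of at least 1.

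Cathepsin L, a cysteine endopeptidase that degrades proteins in lysosomes and trims the invariant chain in the mouse thymus, showed the largest difference and the largest spread of the 10 genes. It read 13.08, 13.10, 13.09 and 13.12 in the RAW-vector clones. In the RAW-FoxQ1 clones it read 12.10, 12.06, 7.68, 10.58 and 10.30. All RAW-FoxQ1 clones were below all RAW-vector clones, by 0.978 at the closest, and they fell into steps, with 7.1 and 7.2 highest, 7.4 and 7.5 between and 7.3 alone at the bottom. Against the RAW-vector mean the clones differed by -1.0, -1.04, -5.41, -2.52 and -2.80. The group means were 13.1 ± 0.0162 (SD, n = 4) and 10.5 ± 1.80 (SD, n = 5), a difference of -2.55 (SE 0.787, 95% interval -4.32 to -0.78) or 5.87-fold. The limma adjusted p was 0.0265 and the exact permutation p 0.0238. Without clone 7.3 the difference was -1.84 (limma adjusted p = 0.00523). The call was lost without any one of the 4 RAW-vector clones or without clone 7.5, where the limma adjusted p was 0.0539 to 0.0586. It was also lost when the variances were not moderated, as in the methods (adjusted p = 0.0651).

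The spread of Ctsl among RAW-FoxQ1 clones ranked 2 of all 16492 gene rows, while its spread among RAW-vector clones ranked 292 from the lowest. The RAW-FoxQ1 SD was 111 times the RAW-vector SD. Clone 7.3 lay 2.61 below the next lowest RAW-FoxQ1 clone, and only 3 gene rows had clone 7.3 at the bottom by that much or more: Ctsl, Selenbp1 and a row with no symbol. Over the 10 genes, 8 varied more among RAW-FoxQ1 than among RAW-vector clones, against 48.5% of all gene rows.

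Cathepsin S, which works at near neutral pH and trims the invariant chain in antigen-presenting cells, fell by a smaller amount with little spread. It read 13.80, 13.64, 13.71 and 13.69 in the RAW-vector clones and 13.32, 13.27, 13.17, 13.30 and 13.22 in the RAW-FoxQ1 clones. The groups were 0.318 apart, and clone 7.3 was again the lowest, by 0.0487. The difference was -0.45 (SE 0.0437, 95% interval -0.55 to -0.35), 1.37-fold, with a limma adjusted p of 3.33e-05 (exact permutation p = 0.00794).

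Cathepsin K, the collagen-degrading protease of osteoclasts, is encoded next to Ctss on chromosome 3 with 0 coding genes between them, and its values did not follow those of Ctss. It read 6.85, 7.01, 6.96 and 6.88 in the RAW-vector clones and 7.07, 6.95, 7.04, 6.89 and 6.93 in the RAW-FoxQ1 clones. The groups overlapped, with clones 7.1 and 7.3 just above the highest RAW-vector clone, and the signal lay near the 34th to 36th percentile of the array. These values were within the range of the fibroblast markers (6.27 to 7.09), so a fall like that of Ctss may not be measurable here. The difference of 0.050 (SE 0.05, 95% interval -0.062 to 0.16) did not pass the test (limma adjusted p = 0.478, exact permutation p = 0.333). The 7 osteoclast markers had a mean log2 level of 7.40 to 7.49 in RAW-vector and 7.12 to 7.44 in RAW-FoxQ1 clones. Acp5 (-0.65) and Ocstamp (-0.64) fell, Atp6v0d2 (0.68) rose, and Calcr, Dcstamp, Oscar and Mmp9 were not called. The shares of 28.6% lower and 14.3% higher stand beside 21.4% and 19.6% of all gene rows. The groups overlapped for Acp5 and Ocstamp, and Acp5 lost its call in 6 of the 9 fits that left out a clone.

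Cathepsin B, an endopeptidase that also removes dipeptides from the carboxyl end of proteins, fell. It read 11.44, 11.57, 11.67 and 11.36 in the RAW-vector clones and 10.74, 10.97, 11.16, 10.99 and 10.70 in the RAW-FoxQ1 clones. The groups were 0.207 apart, with clones 7.1 and 7.5 lowest and clone 7.3 highest of the RAW-FoxQ1 clones. The difference was -0.60 (SE 0.10, 95% interval -0.82 to -0.37), 1.51-fold, at a limma adjusted p of 0.00101 (exact permutation p = 0.00794).

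Cathepsin Z, a carboxypeptidase, had the smallest difference of the genes called. It read 13.26, 13.25, 13.21 and 13.24 in the RAW-vector clones and 12.78, 12.76, 13.02, 12.94 and 12.89 in the RAW-FoxQ1 clones. Clone 7.3 was the highest RAW-FoxQ1 clone here too and still lay 0.190 below the lowest RAW-vector clone. The difference was -0.36 (SE 0.0552, 95% interval -0.49 to -0.24), 1.29-fold, with a limma adjusted p of 5.39e-04 (exact permutation p = 0.00794).

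Cathepsin C, the dipeptidyl peptidase that activates the serine proteases of granules, did not differ on average but varied among the RAW-FoxQ1 clones. It read 9.47, 9.54, 9.86 and 9.52 in the RAW-vector clones and 9.72, 8.80, 9.41, 10.27 and 9.83 in the RAW-FoxQ1 clones. The RAW-FoxQ1 clones lay on both sides of the RAW-vector range, with clones 7.2 and 7.3 below it and clone 7.4 above it, and their SD was 0.545 against 0.177. The difference was 0.0083 (SE 0.249, limma adjusted p = 0.984, exact permutation p = 0.976), and its 95% interval of -0.55 to 0.57 still covers the size of the decrease of most of the called genes.

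Cathepsin H, an aminopeptidase, read 6.48, 6.40, 6.52 and 6.50 in the RAW-vector clones and 6.48, 6.46, 6.48, 6.78 and 6.90 in the RAW-FoxQ1 clones. Clones 7.4 and 7.5 were above all other clones, and the other 3 RAW-FoxQ1 clones lay within the RAW-vector range. The signal was at the dim end of the array, near the 13th percentile in RAW-vector clones. The difference was 0.14 (SE 0.0950, 95% interval -0.070 to 0.36) and did not pass the test (limma adjusted p = 0.276, exact permutation p = 0.325).

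Cystatin C, encoded by Cst3, fell as well. It read 14.44, 14.51, 14.49 and 14.39 in the RAW-vector clones and 14.11, 14.04, 13.30, 14.08 and 14.14 in the RAW-FoxQ1 clones. The groups were 0.250 apart, and clone 7.3 lay 0.744 below the next clone while the other 4 RAW-FoxQ1 clones were within a narrow range. The difference was -0.53 (SE 0.160, 95% interval -0.89 to -0.17), 1.44-fold, with a limma adjusted p of 0.0250 (exact permutation p = 0.00794). Without clone 7.3 it was -0.37 (limma adjusted p = 1.22e-04). The call was lost without RAW-vector clone 4, 5 or 6 (limma adjusted p up to 0.0616) and with unmoderated variances (adjusted p = 0.0601). Its signal was at the bright end of the array, with values up to 14.51 where the brightest value of the table was 14.9.

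**Figure D3:**
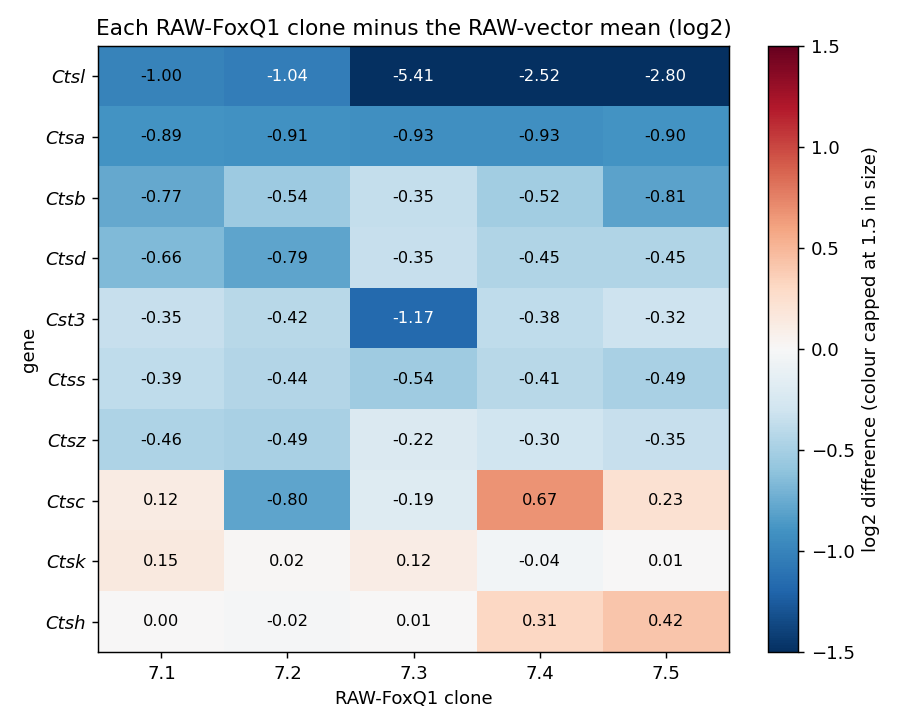
Log2 value of each RAW-FoxQ1 clone (columns) minus the RAW-vector mean for each of the 10 genes (rows), with colours capped at a size of 1.5. Clone 7.3 has the most negative cell for Ctsl (-5.41), Cst3 (-1.17) and Ctss (-0.54) and the least negative for Ctsb, Ctsd and Ctsz, on the deposited scale (centred on ribosomal protein genes, the group differences of Ctsb, Ctsd, Ctss, Ctsz and Cst3 are above 0).

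The clones did not rank alike from gene to gene. Clone 7.3 was the lowest RAW-FoxQ1 clone for 3 of the 7 called genes (Ctsl, Ctss and Cst3) and the highest for 3 others (Ctsb, Ctsd and Ctsz). Averaged over the 6 called genes other than Ctsl, the clones 7.1 to 7.5 lay -0.59, -0.60, -0.59, -0.50 and -0.55 from the RAW-vector mean. With Ctsl included, clone 7.3 had the lowest mean over the 7 called genes, at -1.28 against -0.65 to -0.87 in the other clones, and the lowest mean level over all 10 genes.

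**Figure D4:**
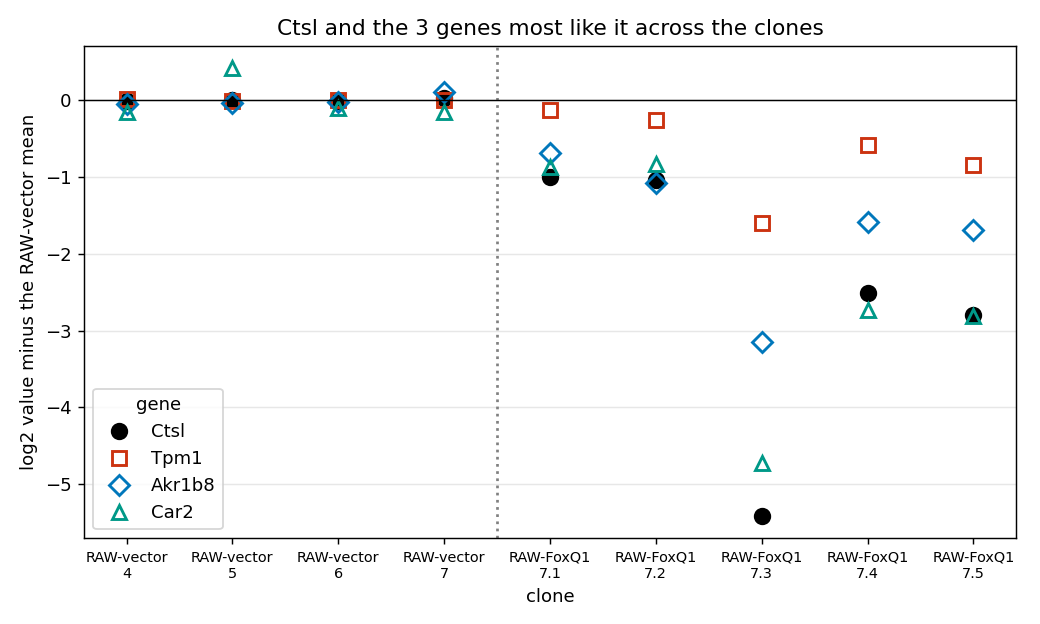
Log2 value minus the RAW-vector mean (y axis) in the 9 clones (x axis) for Ctsl and the 3 genes whose values followed it most closely. All 4 genes show the order 7.1 and 7.2, then 7.4 and 7.5, then 7.3, with Ctsl at -5.41 and Tpm1, the least changed, above -2 in clone 7.3.

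Ctsl was the only one of the 10 genes whose values spanned over 2 log2 units. The named genes whose values followed it most closely over the 9 clones, among 1808 that spanned over 1 log2 unit, were Tpm1 (Pearson r = 0.991), which encodes an actin-binding tropomyosin, Akr1b8 (r = 0.989), an aldo-keto reductase, and Car2 (r = 0.989), carbonic anhydrase 2. The clones share 1 cell line and the group difference itself, so these values describe likeness alone. Car2 read 11.64, 12.21, 11.70 and 11.64 in the RAW-vector clones and 10.92, 10.97, 7.08, 9.07 and 8.99 in the RAW-FoxQ1 clones, the same steps as Ctsl. Akr1b8 read 10.82 to 10.98 in the RAW-vector clones and 10.18, 9.79, 7.71, 9.28 and 9.18 in the RAW-FoxQ1 clones. In limma Car2 differed by -2.39 (adjusted p = 0.0228) and Akr1b8 by -1.64 (adjusted p = 0.00983), while Tpm1 at -0.68 was not called (adjusted p = 0.0595).

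Of 14 other cathepsin genes measured, 4 fell and none rose (28.6% called lower, median difference -0.050, which centring on ribosomal protein genes puts above 0, together with Cts6), beside 21.4% of all gene rows. Ctsf, a cysteine cathepsin with a long propeptide, read 11.15, 11.06, 11.13 and 11.06 in the RAW-vector clones and 10.08, 9.89, 10.35, 10.16 and 9.95 in the RAW-FoxQ1 clones. These groups lay fully apart, with a difference of -1.01 (SE 0.0857, limma adjusted p = 1.45e-05). Ctso, a cysteine cathepsin (-0.83), and Ctse, an aspartic protease of endosomes (-0.71), also fell with groups fully apart. Cts6, 1 of 9 placental cathepsin genes clustered on mouse chromosome 13, was called at -0.13 with overlapping groups. Its call was lost in 6 of the 9 fits that left out a clone. Those 9 genes are close relatives of Ctsl on the same chromosome, and whether their probes tell them apart was not examined. Ctsg and Ctsw, proteases of neutrophils and of cytotoxic lymphocytes, were not called.

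Of the other cystatins and stefins, 13 of 25 had a row, and 2 fell, of which centring on ribosomal protein genes puts Cst6 above 0. The share called lower was 15.4%, beside 21.4% of all gene rows. Cst7, which encodes cystatin F, an inhibitor held inside the endosomes and lysosomes of leukocytes and known to act on cathepsin C, read 11.26, 11.58, 11.45 and 11.37 in the RAW-vector clones and 9.55, 10.05, 9.16, 8.74 and 8.91 in the RAW-FoxQ1 clones. Each RAW-FoxQ1 clone was over 1 log2 unit below the RAW-vector clones, and the lowest was 7.4, not 7.3. The difference was -2.13 (SE 0.236, limma adjusted p = 7.63e-05, exact permutation p = 0.00794). Cstb, the cytosolic stefin B, read 12.35 to 12.57 in RAW-vector and 12.38 to 12.69 in RAW-FoxQ1 clones, a difference of 0.01 (limma adjusted p = 0.933). Cst6 was called at -0.11, at low signal, and lost its call in 6 of the 9 fits that left out a clone.

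Of the genes that activate, accompany or sort cathepsins, 16 were measured. Of these, 10 (62.5%) fell, beside 21.4% of all gene rows. The 3 that rose (18.8%) were a share near the 19.6% of all gene rows. The median was -0.39, which centring on ribosomal protein genes puts above 0, as it does Neu1, Gnptab and Sort1. Lgmn, the protease legumain, which processes several cysteine cathepsins, read 13.10, 13.27, 13.38 and 13.17 in the RAW-vector clones and 12.66, 12.46, 12.59, 12.79 and 12.45 in the RAW-FoxQ1 clones (difference -0.64, limma adjusted p = 1.96e-04). Glb1 (-0.86) and Neu1 (-0.43), the enzymes that share a complex with cathepsin A, both fell. Tpp1 (-1.13), a tripeptidyl peptidase, and Psap (-0.89), the precursor of the saposins, fell as well.

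The genes of the mannose 6-phosphate route differed in direction, where 21.4% of all gene rows were called lower and 19.6% higher. Only Gnptg of the 5 called here stayed called with the poly-A level as a covariate. Over all gene rows that covariate took the calls from 6748 to 2735. M6pr, the cation-dependent receptor, was higher by 0.48 (limma adjusted p = 0.0173), and by 0.14 with the poly-A covariate (adjusted p = 0.769). Gnptg, the gamma subunit of the enzyme that makes the tag, was higher by 0.70 (adjusted p = 9.40e-05 in limma), and Nagpa, the enzyme that uncovers it, by 0.22. The Gnptg signal was low in RAW-vector clones, near the 35th percentile of the array. Gnptab, which encodes the catalytic part of the tagging enzyme, fell by 0.46 and Sort1, the sorting receptor sortilin, by 0.35. Nagpa lost its call in 6 and Gnptab in 4 of the 9 fits that left out a clone. The larger receptor, Igf2r, differed by 0.50 and was not called (limma adjusted p = 0.188), and neither was Grn, the precursor of granulins.

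Of the 5 transcription factors listed for lysosomal genes, 4 (80%) fell, beside 21.4% of all gene rows, and none rose. Centring on ribosomal protein genes puts Zkscan3 and Tfeb above 0. Mitf differed by -0.88, Tfe3 by -0.63, Zkscan3, a repressor of such genes, by -0.31 and Tfeb by -0.28, the last with overlapping groups. Tfec was not called. With the poly-A level as a covariate only Tfe3 stayed called, and Mitf went to -0.51 (limma adjusted p = 0.156). Of 35 lysosomal hydrolases and related proteins measured, Lgmn, Psap, Tpp1, Glb1 and Neu1 included, 28 (80%) fell and none rose. Over all gene rows 21.4% fell and 19.6% rose. The median of these hydrolases was -0.46, which centring on ribosomal protein genes puts above 0. The steepest were Ppt1 (-1.40), a palmitoyl thioesterase, Pla2g15 (-1.37), a phospholipase, and Npc2 (-1.22), a cholesterol carrier.

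**Figure D5:**
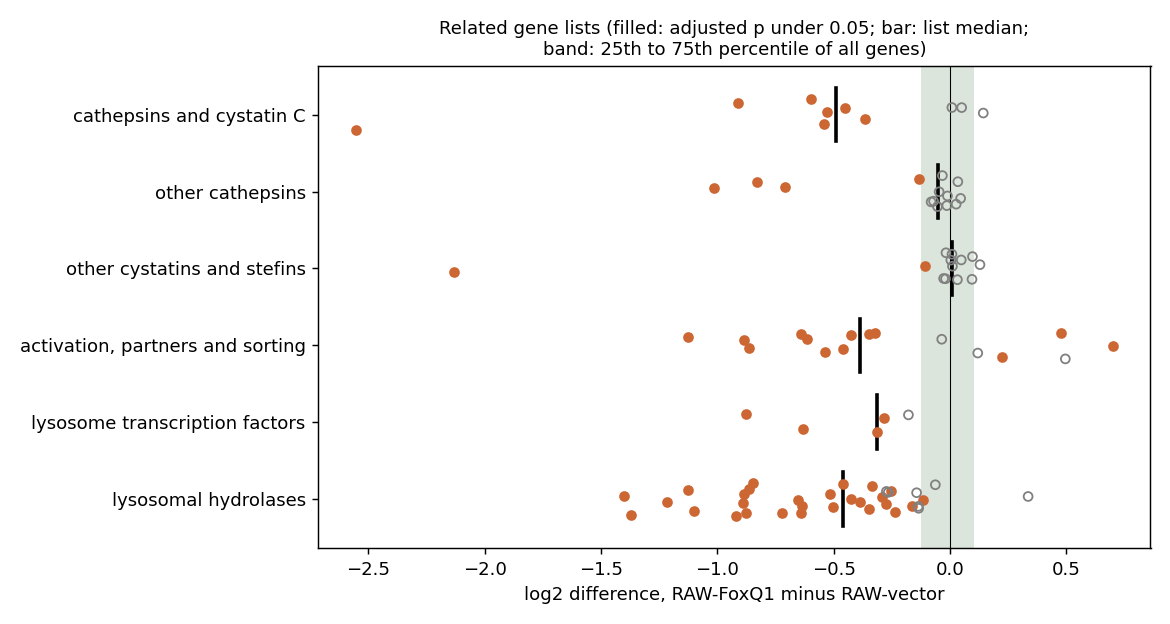
Log2 difference of RAW-FoxQ1 minus RAW-vector (x axis) for each gene of the 10 described and of 5 related lists (y axis), filled where the limma adjusted p is under 0.05, with the list median as a bar and the 25th to 75th percentile of all gene rows (-0.12 to 0.10) as a band. The medians of the 10 genes (-0.49) and of the lysosomal hydrolases (-0.46) lie left of the band. So do those of the activation, partners and sorting list (-0.39) and of the lysosome transcription factors (-0.31). Those of the other cathepsins (-0.05) and cystatins (0.01) lie within it, all on the deposited scale (centring on ribosomal protein genes adds 0.62 to every point).

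Of 15 genes whose products are processed by cathepsins or present antigen with them, 4 fell and 1 rose, and centring on ribosomal protein genes puts Tlr7, Prtn3 and Elane above 0. The share called lower was 26.7%, beside 21.4% of all gene rows, and the share called higher 6.67%, beside 19.6%. Cd74, the invariant chain that cathepsins S and L trim, read 12.21, 12.02, 12.21 and 12.28 in the RAW-vector clones and 11.36, 10.89, 10.65, 11.12 and 10.74 in the RAW-FoxQ1 clones, a difference of -1.23 (limma adjusted p = 7.26e-05). Tlr7 (-0.53), a receptor cut by endosomal proteases, fell, as did Prtn3 (-0.42) and Elane (-0.31), granule proteases that cathepsin C activates. H2-DMb1, a chain of the peptide-loading factor, rose by 0.33, and H2-DMa, H2-Aa, H2-Ab1, H2-Eb1 and Ciita were not called. The mean of H2-DMa was 8.68 in RAW-vector and 8.63 in RAW-FoxQ1 clones (limma adjusted p = 0.826). H2-Ab1 and Ciita were at low signal, near the 24th and 23rd percentile of the array in RAW-vector clones.

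Of 18 proteases and inhibitors that act outside the cell, 5 fell and none rose, and centring on ribosomal protein genes puts all of these but Plau above 0. The share called lower was 27.8%, beside 21.4% of all gene rows. The 5 were Plau (-1.38), the urokinase plasminogen activator, Adamts1 (-0.45), Timp1 (-0.28), Timp2 (-0.15) and Mmp2 (-0.10). Mmp2 lost its call in 7 of the 9 fits that left out a clone. The median of this list was -0.011, near that of all genes.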

How the data were processed

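Total RNA of 9 RAW-264.7 clones was hybridised to Affymetrix mouse genome arrays. Per the methods, the authors defined the genes through Entrez-based custom probe sets and normalized by quantiles. The submitters' processing notes name RMA, without a version. The deposited table holds log2 values, 1 row for each gene, and 0 columns were left out. Scanner output was not used, which fixes the background correction and the probe summary as deposited, and the number of arrays limits the precision.

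Of 16556 rows, 64 control rows were removed, and 15270 of the other 16492 had a symbol. Symbols came from RefSeq through the Entrez ID, or else from GEO's platform table. The main test was limma 3.58.1 in R 4.3.3 (lmFit and eBayes over every gene row, with a term for the group), with Benjamini-Hochberg adjustment over all gene rows and a call at an adjusted p under 0.05. Intervals are 95%. Differences in means were also given a two-sided exact permutation test over 126 splits. The fit was tested on simulated data. Clone numbers are not shared between the groups, so nothing pairs them.

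The 10 genes, the related lists and the marker lists were chosen with earlier results of these data known, so the lists are described by counts and medians with no test. Named are all 10 genes, up to 4 called genes per direction of a list by size, genes whose role is tied to a cathepsin, and the 3 genes with the highest Pearson correlation to a gene spanning over 2 log2 units. Lamp1, Lamp2, Laptm5 and Tmem106b were counted among the partners. The alternatives were the one-way ANOVA of the methods, trended and robust eBayes, weights for the arrays, a filter on rows below the 40 percentile of mean signal, the poly-A level as a covariate, centring on 19 ribosomal protein genes, a difference of at least 1 on the log2 scale, and leaving out each clone. A second ribosomal centring, on the median deviation of these genes from their own mean, was chosen after seeing the data. Promoter windows are RefSeq's (GRCm38.p6) and were searched with Python 3.11.15. The array table names no genome build, so no other coordinates are given.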

Additional observations from a re-analysis of the deposited data

Results flagged for a closer look

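Dixon's test at the 95% level was applied to 110 groups of clones, those of the 10 genes and of the other genes named with a difference, and 7 had a clone far from the rest, where chance gives about 1 in 20 groups. Of the 20 groups that belong to the 10 genes, 2 stood out. Cst3 read 13.296 in RAW-FoxQ1 clone 7.3 and 14.039 to 14.145 in the other RAW-FoxQ1 clones. Ctsa read 10.508 in RAW-vector clone 5 and 10.649 to 10.672 in the other RAW-vector clones. RAW-vector clone 5 also stood apart for Cst6, at 6.3499 against 6.4128 to 6.4198, and for Car2, at 12.211 against 11.641 to 11.696. Akr1b8 read 10.975 in RAW-vector clone 7 and 10.815 to 10.84 in the other RAW-vector clones. Timp1 read 7.4909 in RAW-vector clone 6 against 7.2408 to 7.2506, and Cstb 12.691 in RAW-FoxQ1 clone 7.3 against 12.378 to 12.449. Ctsl in clone 7.3 was not among them, since the other RAW-FoxQ1 clones were themselves spread out.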

How the results depend on the processing

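The 7 genes called lower were again 7 with trend and robust eBayes, array weights and the filter on dim rows, and 5 to 7 when each clone was left out in turn. With the poly-A level as a covariate 3 were called lower: Ctsd (-0.43), Ctsl (-2.70, limma adjusted p = 0.324), Ctsz (-0.33) and Cst3 (-0.26, adjusted p = 0.654) lost their call, Igf2r (-0.42) and Cstb (-0.15), which were not called, turned, and over all gene rows the count of calls went from 6748 to 2735. The poly-A level did not overlap between the groups, so a call lost in that fit does not tell it apart from the group. With a difference of at least 1 asked for, 1 gene was called lower (Ctsl). Under the one-way ANOVA Ctsl (-2.55) and Cst3 (-0.53) lost their call.

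Centring on ribosomal protein genes, of which 12 of 19 were themselves called lower (median -0.25), added 0.62 to every difference, left 2 genes called lower and 3 called higher (Ctsc 0.62, Ctsh 0.76 and Ctsk 0.67), turned Ctsb (0.019), Ctsd (0.074), Ctss (0.16), Ctsz (0.25) and Cst3 (0.089) positive, and called 14970 gene rows. It also turned Cts6 (0.48), Cst6 (0.51), Neu1 (0.19), Gnptab (0.16), Sort1 (0.27), Zkscan3 (0.30), Tfeb (0.33), Tlr7 (0.084), Prtn3 (0.19), Elane (0.31), Adamts1 (0.16), Timp1 (0.33), Timp2 (0.47), Mmp2 (0.51) and Cd3e (0.42). The second ribosomal centring added 0.24, called 2 genes higher (Ctsh 0.38 and Ctsk 0.29), lost the calls of Ctsz (-0.12) and Cst3 (-0.29), turned Cts6 (0.10), Cst6 (0.13), Timp2 (0.090), Mmp2 (0.14) and Cd3e (0.043), and called 12469 gene rows.

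With each clone left out in turn, the differences ranged from -2.94 to -1.84 for Ctsl (-2.56 to -2.49 where its call was lost), from -0.58 to -0.37 for Cst3 (-0.53 to -0.51 where its call was lost, and -0.55 without RAW-vector clone 7) and from -0.16 to 0.21 for Ctsc. The sign of Ctsc changed in 6 of these fits, to -0.035 without RAW-vector clone 4, to -0.020 without clone 7.1 and to -0.048 without clone 7.5 among others, and that of Cstb, which ranged from -0.045 to 0.046, in 3, to -0.024 without RAW-vector clone 4 or 7. The other 7 of the 10 genes kept their direction and call. Averaging of several rows per gene was not run, as each gene had 1 row. For 45 other genes named with a difference, 597 of 716 alternative fits kept direction and call, 85 lost the call (25 of them with the poly-A covariate), 9 gained it and 25 turned. No paired analysis was possible because the groups share no clone numbers.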
